A study of Homo sapiens with 3 samples.

Results

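Kinesins and cytoplasmic dynein are the motors that carry cargo along microtubules. The genes described here are the 52 protein-coding genes whose RefSeq symbol starts with KIF, KLC or DYNC and a digit, out of 20037 protein-coding genes on the main chromosomes. They lie on 18 chromosomes and were chosen by symbol rather than by a measured value, though with earlier results of these data known. Most kinesins walk towards the plus ends of microtubules, which in axons point away from the cell body, while cytoplasmic dynein-1 walks the other way. Kinesin light chains attach cargo to kinesin-1, and cytoplasmic dynein-2 works inside cilia. Other kinesins act on the mitotic spindle or in cytokinesis, and neurons no longer divide.

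The cells were neurons induced with the transcription factor NGN2 from KOLF2.1J, 1 established line of human induced pluripotent stem cells, and were assayed for open chromatin by ATAC-seq. In this assay the Tn5 transposase cuts and tags open DNA. All 3 biological replicates, collected at day 14 of differentiation, form 1 group and are represented by 1 shared peak list, so no value per replicate and no spread between replicates can be given. With a single list there is no comparison of conditions and no test, and differences between gene classes below are descriptions of this list.

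The list held 145092 summits in 65234 distinct intervals, with a median width of 882 bp and a median fold enrichment over the local background of 5.60. The number of sequenced tags behind a summit was recovered from the deposited values and ranged from 58 to 3783, with a median of 189. Of all intervals, 73.1% were distal, meaning that none of their summits lay within 1 kb of an end of any annotated gene. An end of a gene was called accessible when a summit lay within 1 kb of it, and 68.8% of all protein-coding genes had such an end, against 13.5% after all genes were moved by 100 kb. The neuronal label was set against marker genes. Of 11 pan-neuronal markers 9 had an accessible end, and of 6 non-neural markers 0. Among pluripotency markers it was 1 of 6 (LIN28A, 3.04-fold), among glial markers 4 of 6, and among proliferation markers 7 of 7. An accessible promoter does not by itself mean that a gene is transcribed, and no RNA was analysed here.

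The motor genes were divided by known function into 15 transport kinesins, 13 mitotic kinesins, 6 ciliary kinesins, 5 other kinesins, 4 kinesin light chains, 5 genes of cytoplasmic dynein-1 and 4 of cytoplasmic dynein-2. The promoters that collected the most tags in the transport and mitotic classes are printed first, because these classes differ in the values below and in short sequence words before their starts. Each sequence is the 250 bases before the outermost RefSeq start (GRCh38.p14), 5′ to 3′ on the strand of the gene. Capitals mark the word CCAAT on either strand (as ATTGG on the other) and the words TTTGAA or TTCGAA on either strand, which are the core of the cell cycle homology region (CHR).
KIF1B, chr1:10210320-10210569, plus strand: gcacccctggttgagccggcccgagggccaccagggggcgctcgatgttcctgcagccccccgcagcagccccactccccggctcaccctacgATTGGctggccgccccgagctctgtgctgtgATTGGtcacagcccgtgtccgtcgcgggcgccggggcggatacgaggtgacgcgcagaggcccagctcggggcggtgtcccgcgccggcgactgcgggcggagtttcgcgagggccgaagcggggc
KIF3A, chr5:132737547-132737796, minus strand: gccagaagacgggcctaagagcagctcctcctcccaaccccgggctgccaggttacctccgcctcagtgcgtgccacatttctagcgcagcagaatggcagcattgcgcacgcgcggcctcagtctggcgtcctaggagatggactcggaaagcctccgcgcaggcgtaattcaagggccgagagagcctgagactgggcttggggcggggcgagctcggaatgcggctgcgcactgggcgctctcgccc
KIF1C, chr17:4997700-4997949, plus strand: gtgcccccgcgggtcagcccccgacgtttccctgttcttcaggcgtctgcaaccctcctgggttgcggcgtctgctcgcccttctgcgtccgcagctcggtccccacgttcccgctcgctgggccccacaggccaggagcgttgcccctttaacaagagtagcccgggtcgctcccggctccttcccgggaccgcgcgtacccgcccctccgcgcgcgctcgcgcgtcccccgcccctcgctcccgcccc
KIF20B, chr10:89701340-89701589, plus strand: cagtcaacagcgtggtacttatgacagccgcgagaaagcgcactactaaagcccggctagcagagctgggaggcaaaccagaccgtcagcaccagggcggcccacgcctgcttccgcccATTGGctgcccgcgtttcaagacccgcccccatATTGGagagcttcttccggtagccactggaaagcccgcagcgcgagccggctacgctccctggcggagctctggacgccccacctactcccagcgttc
KIF22, chr16:29790501-29790750, plus strand: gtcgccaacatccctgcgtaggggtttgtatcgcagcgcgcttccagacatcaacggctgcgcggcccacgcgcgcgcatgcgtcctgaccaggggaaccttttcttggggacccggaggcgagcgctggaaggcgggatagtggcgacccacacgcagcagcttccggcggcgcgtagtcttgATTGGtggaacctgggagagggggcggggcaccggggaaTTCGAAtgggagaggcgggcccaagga
KIF14, chr1:200620752-200621001, minus strand: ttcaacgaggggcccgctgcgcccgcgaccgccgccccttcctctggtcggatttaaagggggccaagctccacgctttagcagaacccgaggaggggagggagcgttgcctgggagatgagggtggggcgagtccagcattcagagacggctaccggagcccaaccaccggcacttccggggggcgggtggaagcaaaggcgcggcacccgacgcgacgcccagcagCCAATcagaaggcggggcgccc
KIF1B, KIF3A and KIF1C are transport kinesins, and KIF20B, KIF22 and KIF14 act in cell division. The share of G and C in these 6 runs from 64.4% in KIF20B to 74.8% in KIF1B. Its median is 62% over all listed promoters and 65.2% over those of genes with an accessible start. The 3 mitotic promoters each hold a CCAAT word, and KIF22 also holds a CHR word. Of the 3 transport promoters KIF1B alone holds CCAAT, and none holds a CHR word.

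An accessible end was found for 45 of the 52 motor genes, 86.5%, beside 68.8% of all protein-coding genes. Motor genes were longer than most, with a median of 56.1 kb against 24.1 kb, and the share with an accessible end rose with length among all genes, from 57.1% under 20 kb to 77.5% at 20 to 200 kb and 83.9% above 200 kb. Of the 45 genes, 40 were accessible at 1 end and 5 at both ends (KIF17, KIF5C, KIF22, KIF4A and KIF24). Among all 13779 protein-coding genes with an accessible end, 1342 were accessible at both, a similar share. In 43 of the 45 the nearest summit lay within 250 bp of the end. The genes nearest to the 1 kb limit were DYNC2I2 at 678 bp and KIF24 at 732 bp inside it, and KLC3 at 1919 bp and KIF7 at 2731 bp outside it. The accessible end lay within 1 kb of an end of another protein-coding gene in 12 of the 45, or 26.7%, and in 26.2% of all genes with an accessible end. At such shared ends the signal cannot be assigned to 1 of the 2 genes.

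RefSeq starts with a strand were listed for 44 of the 52 genes, and 39 of these had a summit within 1 kb of a start, 88.6% beside 72.4% of all genes with a listed start. The genes without a listed start are KIF21B, KIF26B, KIF13B, KIF27, KIF19, KIF5A, KLC2 and KLC4. Of the 7 genes with no accessible end, KIF7 and DYNC2I1 were accessible at a start inside the gene. KIF7, a regulator of Hedgehog signalling at the cilium tip, had a summit of 6.45-fold with 310 tags at a start 7.58 kb inside. DYNC2I1, an intermediate chain of dynein-2, had one of 16.9-fold with 1928 tags at a start 17.3 kb inside. KIF2B, KIF4B, KIF12, KIF25 and KLC3 were accessible neither at an end nor at a start. KIF4B is an intronless retrocopy of KIF4A, and the nearest summit lay 41082 bp from it, while KIF2B, a short intronless gene for a relative of the microtubule-depolymerising KIF2C, was 28102 bp from one. Their promoters and those of KIF12, KIF25 and KLC3 held a median of 12 CpG dinucleotides (6 to 19) in the 250 bases before the outermost start. The median was 24 in the 39 genes accessible at a start, 21 over all genes with an accessible start and 17 over all promoters. The outermost start need not be the accessible one, as at DYNC2I1, which held 6. Reads from KIF4B and KIF4A may be hard to place because of their similarity, and how such reads were handled is not given in the sources used here.

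**Figure D1:**
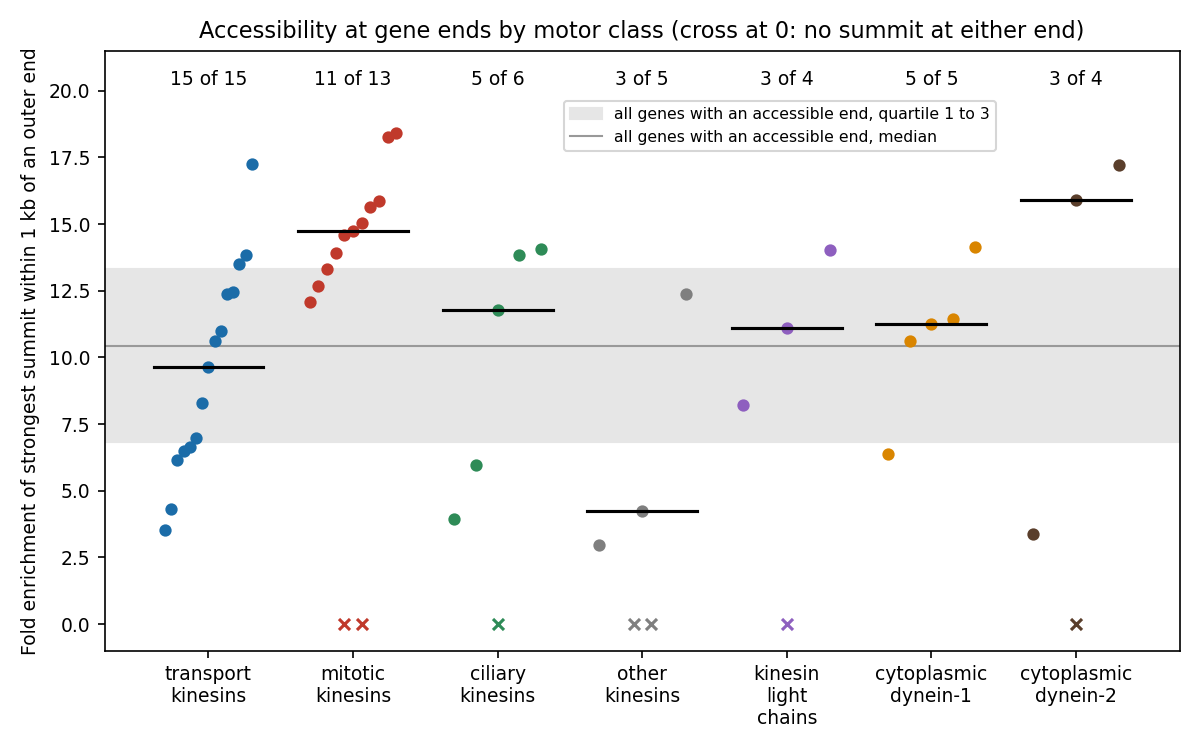
Fold enrichment of the strongest summit within 1 kb of an outer end, with 1 point per motor gene by class, black lines at class medians, and crosses at 0 for genes without an accessible end. The 11 mitotic kinesins with an accessible end lie at 12.1-fold or above, while the 15 transport kinesins spread from 3.53-fold to 17.2-fold around the median of all genes (10.4).

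All 15 transport kinesins had an accessible end, and so did 11 of 13 mitotic kinesins, beside 68.8% of all protein-coding genes. Among genes of 20 to 200 kb it was 13 of 13 and 9 of 9, beside 77.5% of all genes of that length. The strength of that end differed in the other direction. Mitotic kinesins had a median of 14.7-fold, from 12.1 (KIF20A) to 18.4 (KIF4A), and transport kinesins a median of 9.62-fold, from 3.53 (KIF1A) to 17.2 (KIF3A). Over all genes with an accessible end the median was 10.4-fold, with quartiles of 6.82 and 13.3. The ranges overlapped: 10 of the 15 transport kinesins lay below the weakest mitotic one, KIF20A. KIF5B, KIF1B, KIF1C, KIF17 and KIF3A lay above it, and 35.9% of all genes with an accessible end lay at or above it. KIF17 did so at its far end, shared with DDOST, and had 6.28-fold at its own start. Median tag counts were 722 for transport kinesins (436 to 2111), 1253 for mitotic ones (637 to 2320) and 936 for all genes. Their order turned among genes of 20 to 200 kb, with 1055 for 13 transport kinesins and 1002 for 9 mitotic ones, while the median folds there were 9.62 and 14.7. With only the listed starts counted, the medians were 9.43-fold for 12 transport and 14.7-fold for 11 mitotic kinesins, and 8 of the 12 lay below KIF20A.

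The local background, which is part of the fold, had a median of 102.7 tags at transport ends, 84.6 at mitotic ends and 87.0 at the ends of all genes. The median width of the interval at the end was 1315 bp for transport kinesins and 1320 bp for all genes. For mitotic kinesins it was 1139 bp. Widths over 1500 bp occurred in 4 transport kinesins (KIF13A, KIF1A, KIF21A and KIF3C), and the widest mitotic interval was 1361 bp. The share of all genes over 1500 bp was not counted. The 9 pan-neuronal markers with an accessible end differed from the 7 proliferation markers in the same direction as transport from mitotic kinesins. Their medians were 7.91-fold and 1971 bp, against 14.3-fold and 1291 bp. Unlike that of transport kinesins, the pan-neuronal median width lay above that of all genes. The proliferation median lay close to it. The proliferation markers ranged from 8.50-fold to 19.6-fold. Whether a fraction of dividing cells in the cultures had a part in the values of mitotic kinesins was not tested.

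**Figure D2:**
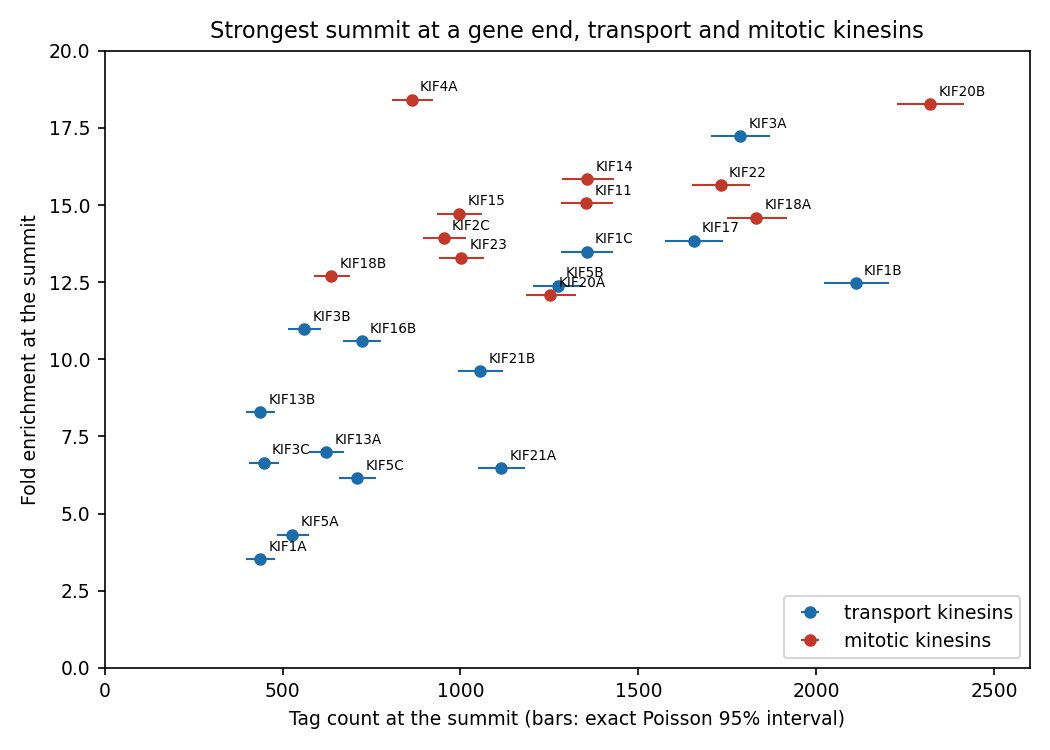
Tag count (horizontal axis, bars show exact Poisson 95% intervals for counting error) against fold enrichment (vertical axis) of the strongest summit at an end, for 15 transport and 11 mitotic kinesins. KIF20B lies highest in tags at 2320 and KIF4A highest in fold at 18.4, while KIF1A and KIF5A lie lowest in fold at 3.53 and 4.32.

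Kinesin-1, the classical motor for anterograde axonal transport, has 3 heavy chain genes. KIF5B, expressed in most tissues, had 12.4-fold enrichment with 1273 tags (95% exact Poisson interval 1204 to 1345). KIF5C, a neuronal form, had 6.15-fold with 709 tags (658 to 763). KIF5A, the neuronal form mutated in a spastic paraplegia, had 4.32-fold with 527 tags (483 to 574) in an interval of 577 bp, the narrowest at any motor gene end. The widely expressed member was therefore the strongest of the 3, and the tag intervals of the 3 genes do not overlap. These intervals cover counting error only, since tags come from amplified libraries without molecular identifiers and 3 replicates are pooled.

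The kinesin-3 genes of the transport class also differed among themselves. KIF1A, the motor of synaptic vesicle precursors, had 3.53-fold and 436 tags (396 to 479) at its outer end. A RefSeq start 1.18 kb inside the gene lay in the same interval, chr2:240819457-240821549, where the strongest of 5 summits had 8.27-fold and 1018 tags (956 to 1083). KIF1B, which carries synaptic vesicle precursors and mitochondria, had 12.5-fold and 2111 tags (2022 to 2203), the most of any transport kinesin. KIF1C, a widely expressed relative, had 13.5-fold and 1355 tags at an end shared with INCA1. KIF13A, KIF13B and KIF16B, which move endosomes and other vesicles, had 6.98-fold, 8.29-fold and 10.6-fold with 623, 436 and 722 tags. Of these 6 transport kinesins KIF1B and KIF1C passed the weakest mitotic kinesin, and KIF1A did not at either position.

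Kinesin-2 motors serve both axons and cilia as heterotrimers or as the dimer KIF17. KIF3A, the shared subunit, had 17.2-fold and 1786 tags (1704 to 1871), the highest fold of the class. Its partners were lower, with 11.0-fold and 560 tags (515 to 608) at KIF3B and 6.65-fold and 447 tags (407 to 490) at KIF3C, which is mainly neuronal. KIF17 had 13.8-fold and 1655 tags at its far end, shared with DDOST, and 6.28-fold and 351 tags (315 to 390) at its own start. The kinesin-4 relatives KIF21A and KIF21B, which restrain microtubule growth, had 6.48-fold with 1114 tags and 9.62-fold with 1055 tags. The interval at KIF21A was the widest at any motor gene end, 2279 bp with 6 summits.

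Among mitotic kinesins all 11 accessible ends lay above the median fold of all genes. KIF20B, a kinesin of cytokinesis, had 18.3-fold and 2320 tags (2227 to 2416) at chr10:89700960-89701934, and KIF4A, a chromokinesin, had 18.4-fold and 863 tags (806 to 923) at an end shared with PDZD11. KIF11, the bipolar motor that pushes spindle poles apart, had 15.1-fold and 1354 tags, and KIF14, needed for cytokinesis, had 15.8-fold and 1356. KIF22, which moves chromosome arms, had 15.6-fold and 1731 tags, and KIF15, which helps to keep the spindle bipolar, 14.7-fold and 996 at an end shared with KIAA1143. KIF18A, which limits chromosome movement at the metaphase plate, had 14.6-fold and 1831 tags at an end shared with METTL15. KIF2C (13.9-fold, 953 tags), KIF23 (13.3-fold, 1002 tags), KIF18B (12.7-fold, 637 tags) and KIF20A (12.1-fold, 1253 tags, shared with BRD8) completed the class. The nearest summit lay 59 to 115 bp from the end in all 11, and 7 to 247 bp from it in the 15 transport kinesins. At the listed starts the strongest summit was upstream of the start in 11 of 11 mitotic and 12 of 12 transport kinesins. The same held in 81.1% of all genes with an accessible start.

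Of the subunits of cytoplasmic dynein-1, the retrograde motor of axons, all 5 had an accessible end, beside 68.8% of all protein-coding genes. The heavy chain DYNC1H1, which holds the motor domain, had 10.6-fold and 1302 tags. The light intermediate chains, which bind cargo adaptors, had 11.4-fold and 1777 tags (DYNC1LI1) and 11.3-fold and 772 tags (DYNC1LI2). The intermediate chains differed: DYNC1I2, widely expressed, had 14.2-fold and 1056 tags (993 to 1122), and DYNC1I1, mainly neuronal, 6.39-fold and 394 tags (356 to 435). As with kinesin-1, the paralog known as more widely expressed had the stronger end. Expression was not measured in these data, and its link to the strength of the end was not tested. Dynein-2, the motor that returns cargo from the cilium tip, was accessible at a start in 4 of 4 genes, with a median of 16.4-fold (15.4 to 17.2). Among all genes with a listed start the accessible share was 72.4%. The dynein-2 heavy chain DYNC2H1 had 15.9-fold and 1571 tags and the light intermediate chain DYNC2LI1 17.2-fold and 946. DYNC2I2 had 3.37-fold and 179 tags at its outer end, which is shared with SET, and 15.4-fold and 1224 tags at its own start 27.6 kb inside.

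The light chains KLC1, KLC2 and KLC4 had 8.21-fold, 11.1-fold and 14.0-fold with 672, 1823 and 1158 tags, and KLC3 had no accessible end. At KLC2 the strongest summit lay 635 bp from an end shared with RAB1B, and the other end was not accessible. No start of KLC2 is listed, so whether this end is its start is not known here. KLC4 shared its end with MRPL2. Among ciliary kinesins, KIF27, KIF6 and KIF9 had 14.1-fold, 13.9-fold and 11.8-fold with 1600, 765 and 968 tags. KIF27 shared its end with LOC105376335 and KIF9 with KLHL18. KIF19, which trims ciliary microtubules, had 3.95-fold and 168 tags (144 to 195). This was the fewest of any motor gene, with the strongest summit at an end taken for each gene. KIF24 had 5.95-fold and 322 tags at a far end shared with UBAP1, and 14.2-fold and 2253 tags at its own start 4.40 kb inside. Of the remaining kinesins, KIF2A, a microtubule depolymerase used in spindles and in neurons, had 12.4-fold and 1926 tags. KIF26A and KIF26B, atypical kinesins, had 4.26-fold with 558 tags and 2.98-fold with 382 tags, and KIF26B was the lowest in fold of all motor genes.

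**Figure D3:**
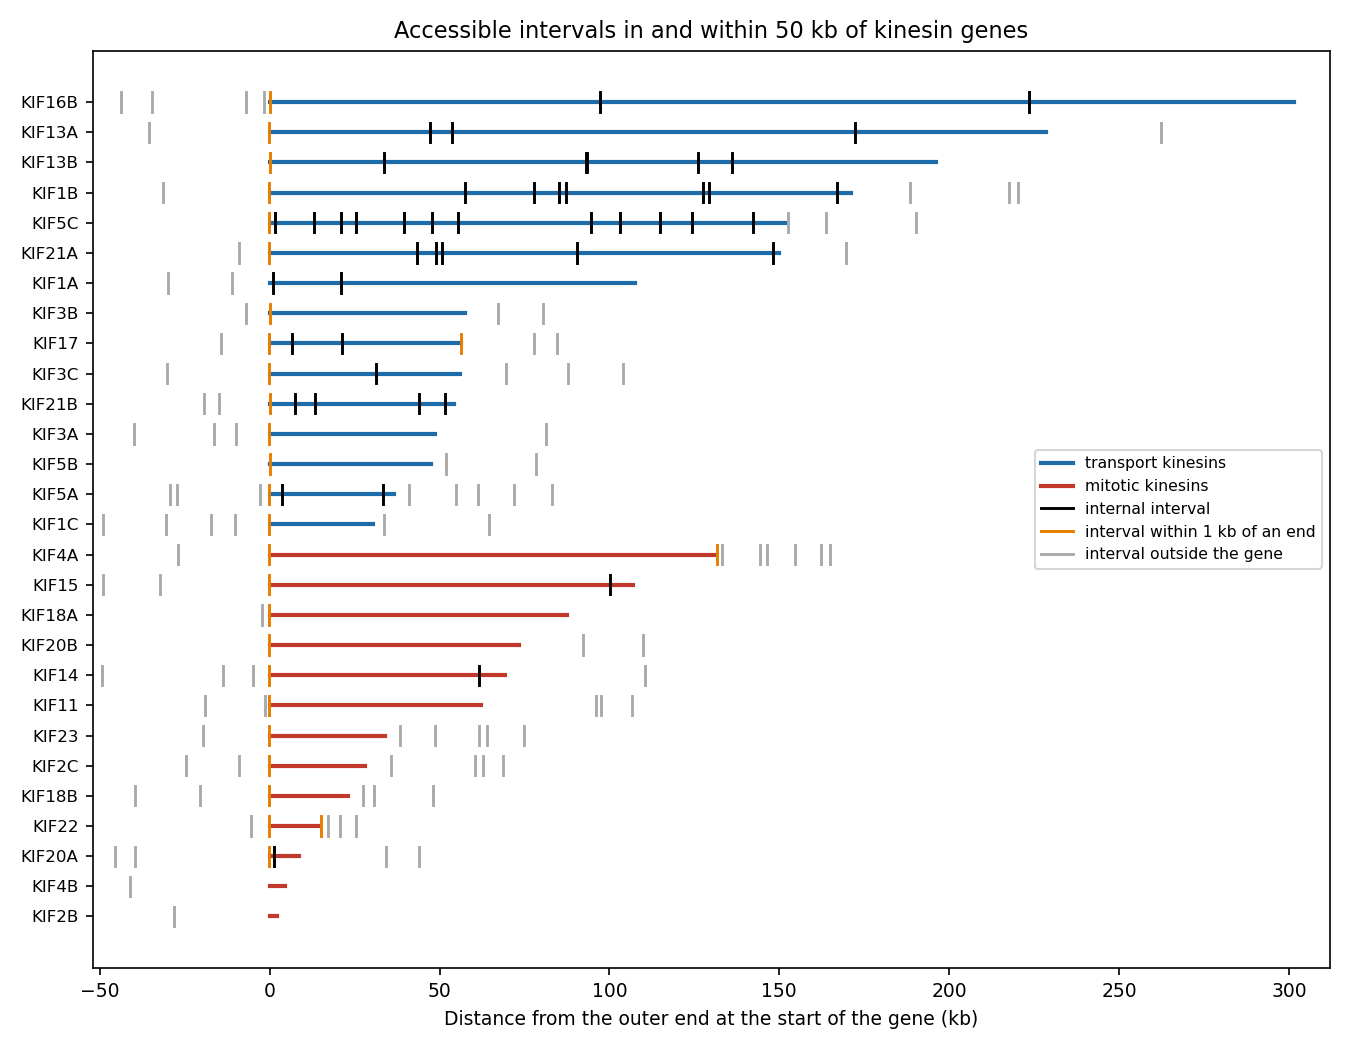
Accessible intervals (ticks) along the 28 transport and mitotic kinesins (bars) and the 50 kb on either side, by distance in kb from the end at the start of the gene. For KIF13B, KIF21B and KIF5A, which have no listed strand, distance runs from the accessible end. KIF5C holds 12 internal intervals in 151.5 kb, and KIF4A, the longest mitotic gene at 130.8 kb, holds 0.

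Intervals inside the genes followed another order. An interval was called internal when its strongest summit lay in the gene and more than 1 kb from both ends. The 52 motor genes held 99 internal intervals, and 33 of the genes (63.5%) held at least 1, beside 40.9% of all protein-coding genes. Among all genes this share rose steeply with length, from 14.4% under 20 kb to 57.7% at 20 to 200 kb and 97.1% above. Of the 99, 92 were distal, and 7 had a summit within 1 kb of an end of an annotated gene, the host included, as at KIF1A. Their median fold was 5.23 (2.19 to 16.9), so most were weaker than the ends. Internal intervals include starts inside the gene, as at KIF7, KIF24, DYNC2I1 and DYNC2I2, and the reference used has no exons, so exons and introns are not told apart.

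Transport kinesins held 45 internal intervals in 11 of 15 genes, and mitotic kinesins held 3 in 3 of 13. Over the summed gene length this was 2.66 per 100 kb for transport kinesins, 0.465 for mitotic kinesins and 2.06 for all protein-coding genes. Counting every interval whose strongest summit lay between the outer ends, the median per gene was 1.86 per 100 kb, 0 and 0.77 in the same order. Mitotic genes were shorter, with a median of 34.1 kb against 57.4 kb. Within 20 to 200 kb the internal density was 3.44 per 100 kb for 13 transport kinesins, 0.33 for 9 mitotic kinesins and 2.01 for all genes of that length. KIF5C held 26.7% of the internal intervals of the transport class, and without it the density of the class was 2.14 per 100 kb. Between 60 and 140 kb, 2 of 6 mitotic kinesins held an internal interval, against 2327 of 3153 protein-coding genes.

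KIF5C held the most internal intervals of the transport class, 12 in 151.5 kb. Of 1957 protein-coding genes of 100 to 200 kb, 13 held at least as many, and the median was 2. Their folds ran from 2.83 to 11.1 and their tags from 129 to 1108. The strongest in fold, chr2:148913882-148915189, lay 39.4 kb inside the gene with 11.1-fold and 808 tags (753 to 866). The one with the most tags, chr2:148876246-148877352, lay 1.63 kb inside with 8.42-fold and 1108 tags (1044 to 1175), more than the 709 tags at the end of the gene. In KIF5C 2 internal intervals therefore exceeded the end of the gene in tags, whereas KIF5B held 0.

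The other long transport kinesins held fewer. KIF1B held 7 in 171.0 kb, the strongest 10.4-fold with 641 tags at 85.1 kb inside. KIF21A and KIF13B held 5 each, at up to 8.48-fold and 6.35-fold, and KIF21B held 4 in 54.3 kb, at up to 6.30-fold. KIF13A held 3 in 228.5 kb and KIF16B 2 in 301.3 kb, the longest gene of the class. KIF5A held 2 in 36.6 kb, and the one at 33.4 kb inside, chr12:57582953-57583921, had 9.21-fold against 4.32-fold at its end but fewer tags, 445 (405 to 488) against 527. KIF17 and KIF1A also held 2, and KIF3C 1. KIF1C, KIF3A, KIF3B and KIF5B held 0, and none of these is longer than 57.4 kb.

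The 3 internal intervals of mitotic kinesins were in KIF14 (5.10-fold, 153 tags), KIF20A (2.24-fold, 237 tags) and KIF15 (11.1-fold, 492 tags). The one in KIF15 lay within 1 kb of an end of another gene, so 2 of the 3 were distal. KIF11, KIF18A, KIF20B and KIF4A, each over 60 kb, held 0. Among the other classes, KIF26B, a long gene of 554.4 kb, held 13 intervals of 3.45-fold to 10.6-fold, KIF6 held 9 in 395.4 kb and DYNC1I1 6 in 337.8 kb. In DYNC1I1 the interval 114.3 kb inside had 10.9-fold and 403 tags (365 to 444), and the one 303.1 kb inside had 9.16-fold and 497 tags (454 to 543), beside 394 (356 to 435) at its end. DYNC2H1 held 3 in 370.4 kb.

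**Figure D4:**
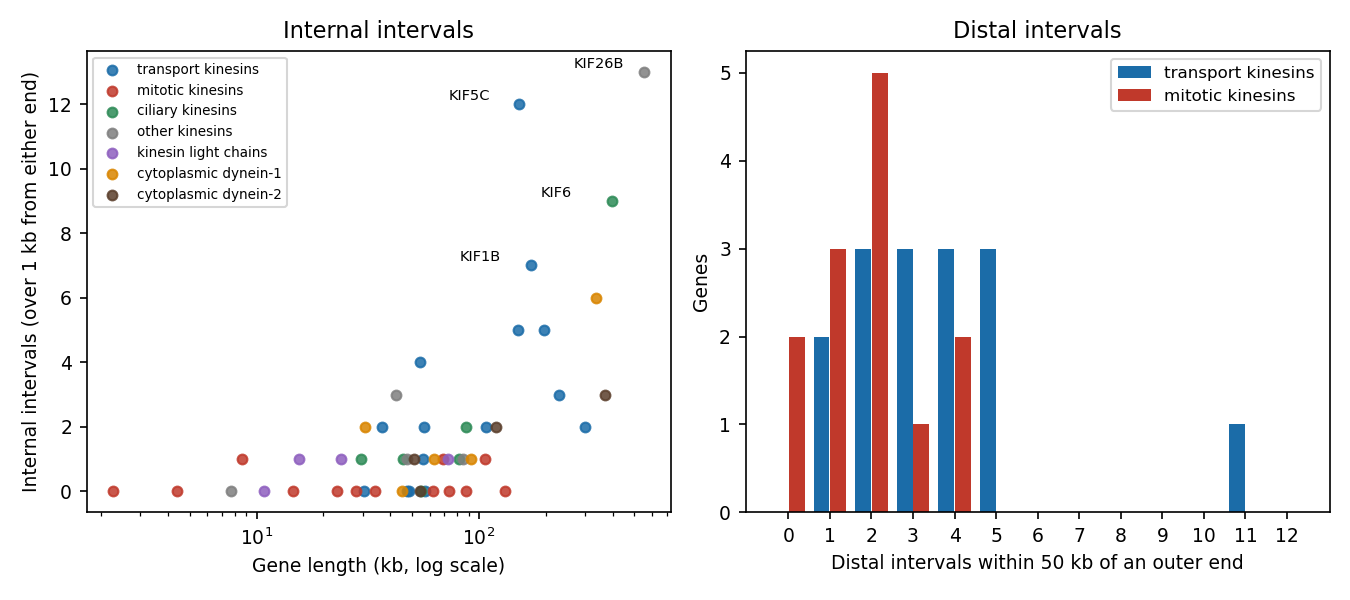
Left, internal intervals per gene against gene length in kb on a log axis for the 52 motor genes, coloured by class; right, the number of transport and mitotic kinesins with each count of distal intervals within 50 kb of an end. KIF26B (13) and KIF5C (12) hold the most internal intervals, and KIF5C has 11 distal intervals while mitotic kinesins have at most 4.

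Distal intervals within 50 kb of an end, in or outside the gene, were found for 50 of the 52 motor genes, beside 82.5% of all protein-coding genes. The share of all genes with none fell with length, from 24.6% under 20 kb to 4.50% above 200 kb. The median was 2.5 per motor gene and 2 per gene overall. At least 5 such intervals were found for 9 motor genes (17.3%), beside 15.0% of all genes, so the 2 shares are close. Transport kinesins had a median of 3 (1 to 11) and mitotic kinesins of 2 (0 to 4). At least 5 were found for 4 transport kinesins (KIF1B, KIF21A, KIF21B and KIF5C) and 0 mitotic ones. Windows at the 2 ends overlap in short genes, so longer genes were searched over more sequence. The share of all genes with at least 5 rose from 7.37% under 20 kb to 19.3% at 20 to 200 kb and 35.0% above 200 kb. Within 20 to 200 kb the medians were 3 for 13 transport and 2 for 9 mitotic kinesins, and 4 and 0 had at least 5. KIF5C had 11, of which 10 lay inside the gene, and 67 protein-coding genes had as many or more. KIF15 and KIF22 had 0. Nearby distal intervals can belong to any gene of the neighbourhood, and their targets were not tested.

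**Figure D5:**
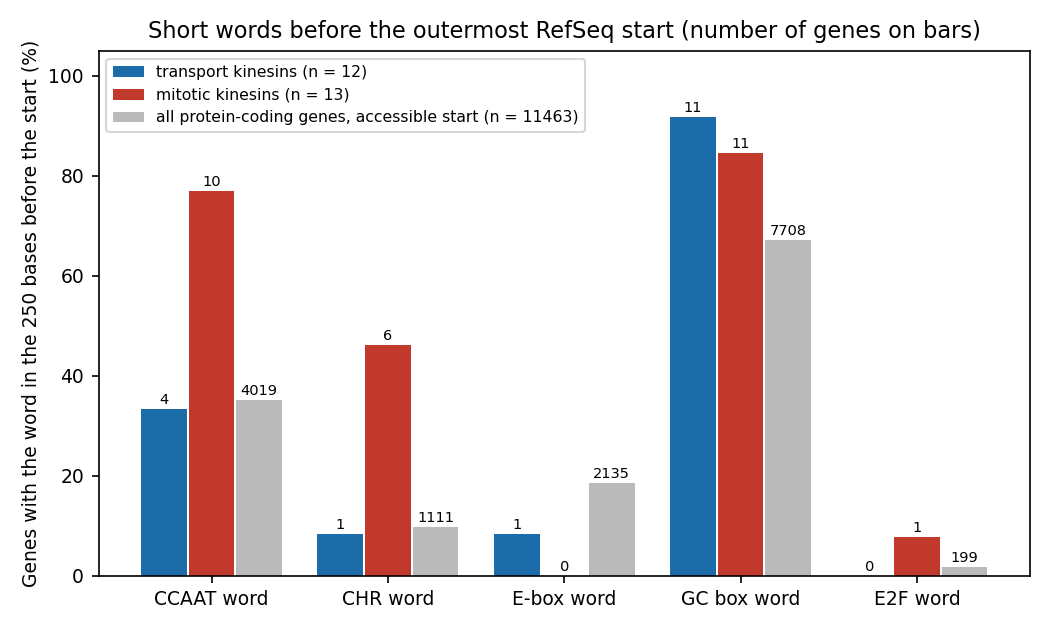
Share of genes with each short word in the 250 bases before the outermost RefSeq start, for 12 transport kinesins, 13 mitotic kinesins and the 11463 protein-coding genes with an accessible start. CCAAT words stand before 10 of 13 mitotic and 4 of 12 transport kinesins, and CHR words before 6 of 13 and 1 of 12.

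The sequences printed above belong to a wider difference in promoter words. CCAAT, the word bound by NF-Y, stood in the 250 bases before the start of 10 of 13 mitotic kinesins (76.9%) and 4 of 12 transport kinesins (33.3%). It stood before 34.5% of all 15843 listed promoters and 35.1% of those of genes with an accessible start, which need not be the outermost one. The CHR words TTTGAA and TTCGAA, bound by the MuvB complexes that control cell cycle genes, stood before 6 of 13 mitotic kinesins (KIF11, KIF15, KIF18A, KIF22, KIF23 and KIF4A) and 1 of 12 transport kinesins. They stood before 12.0% of all promoters and 9.69% of those of genes with an accessible start. Both words occurred together before 5 mitotic kinesins (38.5%) and 1 transport kinesin, and before 4.04% of promoters of genes with an accessible start. The E2F words TTTCGCGC and TTTGGCGC occurred before KIF15 alone among motor genes, and before 1.74% of promoters of genes with an accessible start.

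Words tied to GC content and to neurogenic factors did not separate the 2 classes in this way. The GC box GGGCGG, bound by Sp factors, stood before 11 of 12 transport and 11 of 13 mitotic kinesins, and before 67.2% of promoters of genes with an accessible start. CpG counts in the 250 bases had medians of 25.5 and 24 in the 2 classes. The E-box words CAGATG and CAGCTG, to which NGN2 and related factors can bind, stood before 1 transport kinesin and 0 mitotic ones, and before 2 of the 44 motor genes with a listed promoter (4.55%), beside 21.4% of all promoters. All words were searched on both strands, none contains another, and words that share a base at their edges were each counted. A word in the sequence is not a bound site, and the absence of a word concerns these 250 bases only.

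Motors act with activators and adaptors, and 40 partner genes were examined in the same way: dynactin subunits, dynein regulators and light chains, cargo adaptors, and kinesin adaptors. An accessible end was found for 38 of the 40 (beside 68.8% of all protein-coding genes), with a median of 10.7-fold. KIFAP3, the non-motor subunit of kinesin-2, and NDEL1, a dynein regulator, had none but were accessible at a start inside the gene, with 17.8-fold and 1713 tags and 14.9-fold and 1566 tags. All 31 partner genes with a listed start were accessible at one, beside 72.4% of all genes with a listed start. At least 1 internal interval was found in 17 partners (42.5%, beside 40.9% of all genes). The most were in TRAK1, which links kinesin-1 to mitochondria, with 15, in BICD1, a dynein adaptor, with 10, and in HOOK2, another dynein adaptor, with 5.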

How the data were processed

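The 52 genes and their classes, the partner and marker lists and the measures were chosen with earlier results of these data known. Positions are in hg38, per the submitters' processing notes, and gene ends, starts and promoter sequences are from RefSeq GRCh38.p14. The aligner, the peak caller and their settings are not given in the sources used here. The labels call the list the optimal set by irreproducible discovery rate for the 3 replicates.

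The list as deposited by the authors holds, per summit, a score (used at its top value of 1000 in an alternative), the fold enrichment as a linear ratio, a −log10 p and a summit offset. The tag count and local background were recovered from the ratio (with a pseudocount of 1) and a Poisson upper tail. Whole numbers matched the deposited −log10 p to within 0.00079, against a median of 0.266 for the next whole number. The depth of each replicate is unknown.

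Entries that share both bounds count as 1 distinct interval, represented by its summit with the highest −log10 p. Every member is named. Of the partner genes, those without an accessible end and the 3 with the most internal intervals are named. Promoters are printed for up to 3 transport and 3 mitotic kinesins with the most tags at an accessible start, and KIF18A is passed over because its 250 bases overlap METTL15. No test was made, since the list has no replicates, and classes are described by counts and medians beside all 20037 protein-coding genes. Python 3.11.15, numpy 2.4.6, scipy 1.17.1, pandas 2.3.3 and matplotlib 3.10.9 were used, and the scripts were tested on simulated data. Alternative windows, thresholds, gene lists and length limits were tried. Of the kinesins outside the symbol rule, 1 is not reported here.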

Additional observations from a re-analysis of the deposited data

How the results depend on the processing

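Across 28 summary values and their alternatives, 196 values were recomputed. Of these 151 stayed close to the value in the text (for shares, within its 95% Wilson interval, otherwise within 1.5 times), 44 moved further and 1 reversed. Of 49 recomputed differences between transport and mitotic kinesins 45 kept their direction, 3 were 0 and 1 reversed. The difference in the percentage of members with an accessible end (15.4 percentage points) was 8.72 with only the strongest summit of each interval, 8.72 with intervals at or above the median fold, and 0 both with narrow lists, which leave out KIF2B and KIF4B, and in genes of 20 to 200 kb, which also leaves these 2 out. The difference in median intervals per 100 kb (1.86) was 3.70 with all summits and 3.06 in genes of 20 to 200 kb. The difference in median internal intervals (2) was 5 with all summits and 1 at or above the median fold, and in pooled internal intervals per 100 kb (2.19) it was 4.32 and 1.20. The difference in median distal intervals (1) was 0 within 20 kb, 3 within 100 kb, 2 when distal was decided by the strongest summit alone and 6 with all summits. The difference in median tags at an end (fell by 531 from mitotic to transport) was -198 with a window of 2 kb and reversed to 53 in genes of 20 to 200 kb. The difference in median fold stayed between -6.76 and -5.10. The causes of these shifts were not tested. Counting starts only for fold and tags, counting only distal internal intervals, pooling internal intervals over a class, and the limit of 20 to 200 kb for accessible ends, fold and tags were chosen after seeing the data. No paired analysis was possible because all replicates belong to 1 group and share 1 list without values of their own, which also prevented leaving out replicates.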

Other observations

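The symbol rule leaves out kinesins of other names, of which 3 are described here. Each had an accessible end, as did 68.8% of all protein-coding genes. CENPE, which holds chromosomes to spindle microtubules, had 14.4-fold enrichment and 1354 tags (exact Poisson 95% interval 1283 to 1428). KIFC1, a minus-end motor that focuses spindle poles, had 15.6-fold and 2487 tags (2390 to 2587), more than the 2320 at KIF20B. Both held 0 internal intervals and lay within the range of the mitotic kinesins above in fold. KIFC2, a kinesin found in neurons, had 5.30-fold and 904 tags at an end shared with TMEM276-ZFTRAF1. It lay below the weakest mitotic kinesin in fold, as 10 of 15 transport kinesins did.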
